A study of Mus musculus with 6 samples.

Results

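The replication-dependent histone genes are the clustered genes that supply most of the histone H1, H2A, H2B, H3 and H4 protein that a cell packs onto newly made DNA. Members were taken from the array annotation as genes with at least 1 probe set whose only gene symbol starts with Hist1h, Hist2h or Hist3h. This gave 26 genes of the 22103 that have a probe set with 1 symbol. They divide into 6 H1, 8 H2A, 9 H2B, 1 H3 and 2 H4 genes, of which 19 lie in the cluster on chromosome 13, 4 in that on chromosome 3 and 3 in that on chromosome 11. The RefSeq table lists 69 genes with such names, 66 of them protein coding, and 43 of the 69 have no probe set of their own here. The 26 members have 81 probe sets: 4 members have 1, 21 have 2 to 5, and H2bc18 has 12. Many of these genes encode identical or nearly identical proteins. A further 123 probe sets carry several symbols with at least 1 histone gene among them, and they are described separately.

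The study compared OP9 cells, a mouse bone marrow stromal cell line, that carried an shRNA against Smoothened (Smo shRNA, 3 arrays) with OP9 cells that carried a scrambled, non-targeting shRNA (control shRNA, 3 arrays). Smoothened (Smo) is the membrane protein through which Hedgehog ligands signal. Both groups were lines with a stably integrated pLKO.1-Puro lentivirus, grown below confluency, and total RNA of each line was prepared 3 times and read on Affymetrix Mouse Exon 1.0 ST arrays. The labels name 1 line per group and do not say that its preparations stem from different transductions or cultures. The p-values therefore cover the spread between RNA preparations, which may be technical, and a difference between the lines of other origin cannot be told apart from that of the hairpin. Smo itself was at 11.32, 11.36 and 11.44 on the Smo shRNA arrays and at 12.29, 12.23 and 12.24 on the control shRNA arrays (log2 difference -0.88, SE 0.04, limma adjusted p = 1e-06).

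All values below are log2 array values as the authors deposited them, or gene values joined from them by median polish, and every difference is Smo shRNA minus control shRNA on that scale. A feature was called where limma's adjusted p was below 0.05, and its error is the moderated standard error (SE). Arrays of the same line correlated at 0.997 to 0.998 and arrays of different lines at 0.990 to 0.991 over genes, which are not independent replicates. Of 12 stromal cell markers 11 lay above the 95th percentile of the odorant receptor genes (7.29), which served as a scale of dim genes. Of the 12, 1 was called higher and 8 lower in Smo shRNA cells, or 75% called against 28.1% of all genes. Their part in the histone results was not tested. Only 2 of 14 markers of blood and endothelial cells lay above that percentile, and none of the 14 was called. Of the 26 histone genes 16 lay above that percentile.

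Replication-dependent histone mRNAs are made mainly in S phase, when DNA is copied. Their transcription is driven by the coactivator NPAT, and most of them end in a conserved stem-loop in place of a poly(A) tail. The stem-loop is bound by SLBP and the transcript is cut behind it by a complex with the U7 small nuclear ribonucleoprotein. Linker histone H1 binds where DNA enters and leaves the nucleosome, whose core holds H2A, H2B, H3 and H4. H1f6, H2ac1 and H2bc1 are known as testis genes, and H2af-ps2 and H2bu1-ps are pseudogenes in RefSeq.

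The promoters of 6 members are printed because they belong to H1f5, called higher, to H1f2 and H1f3, called lower, to H1f4, the uncalled H1 gene of highest level, and to the H2A and H3 genes of largest difference. Each window runs from 250 bases before the transcription start to 50 bases from the start on, is written 5′ to 3′ on the strand of the gene, and comes from RefSeq on build GRCm38.p6. Capitals mark matches on either strand. The TATA box was searched as TATAAA and the CCAAT box by those letters. The octamer known from H2B promoters was searched as ATTTGCAT, and the H1 box, known from H1 promoters, as AAACACA. The windows are H1f5 at chr13:21780576-21780875 (minus strand), H1f2 at chr13:23738557-23738856 (plus strand), H1f3 at chr13:23554782-23555081 (plus strand), H1f4 at chr13:23622509-23622808 (minus strand), H2aw at chr11:58954435-58954734 (plus strand) and H3c15 at chr3:96239078-96239377 (minus strand).
H1f5: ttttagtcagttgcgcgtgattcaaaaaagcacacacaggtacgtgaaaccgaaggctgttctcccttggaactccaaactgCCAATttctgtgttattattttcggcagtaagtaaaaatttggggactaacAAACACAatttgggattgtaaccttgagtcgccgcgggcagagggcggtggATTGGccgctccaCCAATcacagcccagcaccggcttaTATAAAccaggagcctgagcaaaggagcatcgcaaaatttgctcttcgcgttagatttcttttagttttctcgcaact
H1f2: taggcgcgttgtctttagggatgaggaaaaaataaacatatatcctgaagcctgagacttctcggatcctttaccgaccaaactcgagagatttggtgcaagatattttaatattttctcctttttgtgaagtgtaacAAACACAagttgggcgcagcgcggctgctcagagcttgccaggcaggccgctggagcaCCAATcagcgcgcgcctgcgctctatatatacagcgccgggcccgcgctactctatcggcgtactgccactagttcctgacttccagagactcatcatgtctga
H1f3: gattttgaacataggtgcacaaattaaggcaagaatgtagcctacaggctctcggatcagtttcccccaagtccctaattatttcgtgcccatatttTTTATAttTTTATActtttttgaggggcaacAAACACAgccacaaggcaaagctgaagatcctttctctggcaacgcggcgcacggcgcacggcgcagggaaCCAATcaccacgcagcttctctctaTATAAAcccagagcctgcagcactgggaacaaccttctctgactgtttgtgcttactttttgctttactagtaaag
H1f4: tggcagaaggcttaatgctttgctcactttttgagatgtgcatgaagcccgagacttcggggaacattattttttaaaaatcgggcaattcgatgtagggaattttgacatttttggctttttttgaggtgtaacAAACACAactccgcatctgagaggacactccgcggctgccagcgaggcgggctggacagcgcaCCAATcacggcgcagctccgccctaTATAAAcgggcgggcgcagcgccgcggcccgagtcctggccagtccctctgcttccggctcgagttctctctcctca
H2aw: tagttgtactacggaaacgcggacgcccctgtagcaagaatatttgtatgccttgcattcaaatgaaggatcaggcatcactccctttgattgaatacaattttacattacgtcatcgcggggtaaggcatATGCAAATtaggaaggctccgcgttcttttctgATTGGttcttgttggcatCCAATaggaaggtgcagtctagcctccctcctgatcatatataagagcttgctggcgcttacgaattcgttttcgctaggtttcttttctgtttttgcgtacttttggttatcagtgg
H3c15: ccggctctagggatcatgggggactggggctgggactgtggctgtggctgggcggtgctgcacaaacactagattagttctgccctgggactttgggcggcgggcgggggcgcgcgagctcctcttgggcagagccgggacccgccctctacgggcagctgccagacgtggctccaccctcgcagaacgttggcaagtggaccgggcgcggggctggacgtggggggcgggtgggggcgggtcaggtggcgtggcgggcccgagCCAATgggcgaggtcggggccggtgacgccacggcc

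A promoter window was present for 22 of the 26 members. CCAAT occurred in 21 of the 22, against 37.4% of all 32851 windows in the table, and TATAAA in 15 of 22, against 13.6%. ATTTGCAT occurred in 5 of 7 H2A windows, 4 of 7 H2B windows and 0 of 6 H1 windows, against 1.74% of all windows. AAACACA occurred in 5 of 6 H1 windows and in 8 of the 22 members, against 7.18% of all windows. The windows of H2ac8 and H2bc8 overlap, as do those of H2ac1 and H2bc1, so a site in the common part counts for both genes. The ATTTGCAT match is the same site within each of these pairs. So are the TATAAA match of H2ac8 and H2bc8 and the AAACACA match of H2ac1 and H2bc1. The 2 E2F-type motifs searched, TTTCCCGC and TTTGGCGC, were in 0 of 22 member windows and in 1.07% and 0.514% of all windows. None of the 6 motifs contains another one. A match is a stretch of letters in the window, not a measured binding site. H1f5, which was higher in Smo shRNA cells, and H1f2 and H1f3, which were lower, all held AAACACA and CCAAT.

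Gene values of the histone genes moved in both directions between the lines. Of 26 members 3 were called higher in Smo shRNA cells, 5 were called lower and 18 were not called. This is 30.8% called, close to the 28.1% of all 22103 genes, where 3394 were higher and 2815 lower. With the brightest probe set standing for each gene, 7 members were higher and 4 lower, against 2506 higher and 2352 lower of 22103 genes, and with dim probe sets filtered out, 3 were higher and 8 lower, against 3510 and 2863 of 20356 genes. In these settings the members' share was above that of all genes. Leaving out any 1 array left 1 to 2 members higher and 1 to 3 lower, and all genes then gave 2132 to 2456 higher and 1759 to 2474 lower. The median difference of the members was -0.08, against 0.01 over all genes. In bulk RNA, a change in the share of cells in S phase and a change in histone mRNA per cell cannot be told apart, in either direction.

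**Figure D1:**
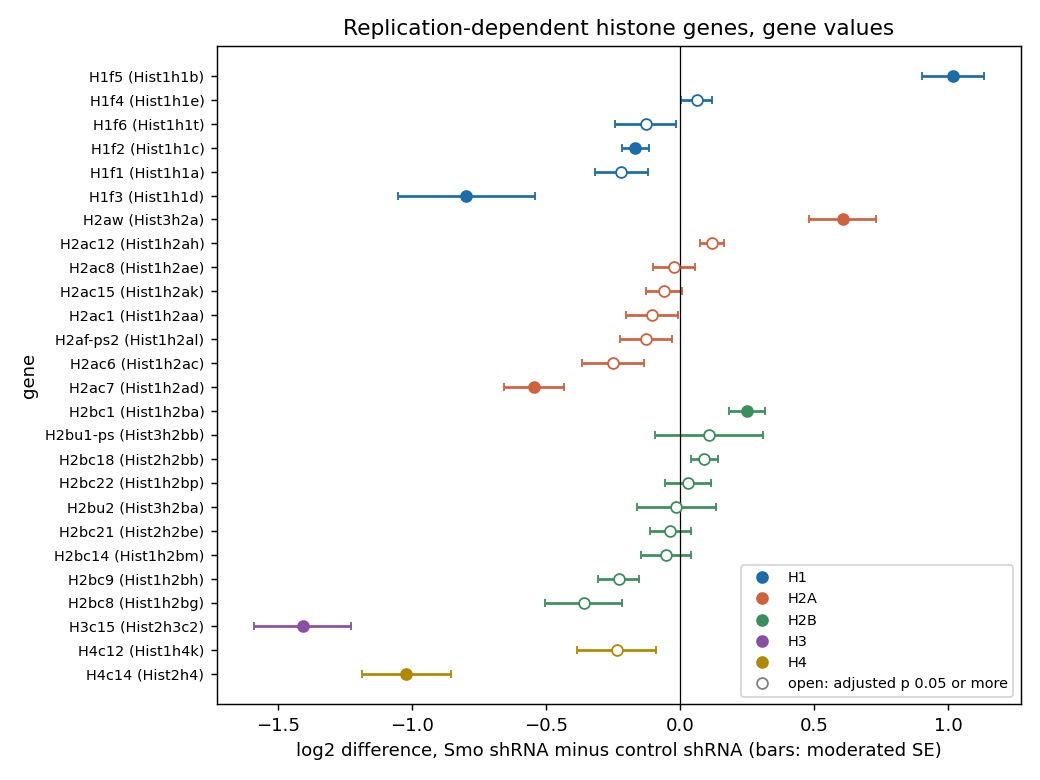
Log2 difference of each of the 26 histone genes, Smo shRNA minus control shRNA (x axis), by gene (y axis) and coloured by class. Points are gene values and bars the moderated SE. Filled points passed the threshold, 3 to the right of 0 and 5 to the left, with H1f5 at 1.02 and H3c15 at -1.41 as the ends of the range.

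Among the H1 linker histone genes, H1f5 was higher and H1f2 and H1f3 were lower in Smo shRNA cells. H1f5 read 9.77, 10.25 and 9.84 on the Smo shRNA arrays, against 9.00, 8.96 and 8.84 on the control shRNA arrays. Every Smo shRNA array lay above every control array, for a difference of 1.02 or 2.03-fold (SE 0.12, limma adjusted p = 0.000172). Both of its probe sets were called higher, but by unlike amounts, probe set 5011123 by 0.45 and probe set 4672065 by 1.58. Probe set 4672065 had a mean of 6.21 on the control arrays, below the odorant receptor scale, and the 2.03-fold joins the 2. The H1f5 call held in all 13 alternatives, at differences of 0.45 to 1.11.

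H1f3 read 9.49, 9.99 and 10.07 on the Smo shRNA arrays, against 10.13, 10.57 and 11.25 on the control arrays. The groups did not overlap, but the highest Smo shRNA array lay just below the lowest control array. The difference was -0.80 (SE 0.26, limma adjusted p = 0.0458), and the call was lost when any 1 of the 6 arrays was left out (-1.05 to -0.50). H1f2 read 11.47, 11.63 and 11.49 on the Smo shRNA arrays, against 11.62, 11.70 and 11.76 on the control arrays. These groups overlapped by 1 array, and the difference of -0.17 (SE 0.05, limma adjusted p = 0.0399) was lost in 5 of the 6 fits without 1 array. Leaving out Smo shRNA replicate 1 or 3 gave -0.14 or -0.16, and leaving out control replicate 1, 2 or 3 gave -0.16, -0.12 or -0.09.

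H1f4 had the highest gene value of all members. It read 13.21, 13.39 and 13.42 on the Smo shRNA arrays, against 13.19, 13.30 and 13.35 on the control arrays, overlapping values with a difference of 0.06 (SE 0.06, limma adjusted p = 0.527). H1f6, the testis H1 gene, averaged under the odorant receptor scale in both lines, at 7.12 ± 0.23 in Smo shRNA cells and 7.25 ± 0.10 in control cells (SD, n = 3 each; difference -0.13, limma adjusted p = 0.515). H1f1 had the lowest gene value of the members, 3.51 ± 0.02 in Smo shRNA cells and 3.73 ± 0.15 in control cells (SD, n = 3 each; difference -0.22, limma adjusted p = 0.148).

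The 3 probe sets of H1f2, the 3 of H1f3 and the 4 of H1f4 each held one that fell far more than the rest. Probe set 5554872 of H1f2 read 10.49, 10.77 and 11.05 on the Smo shRNA arrays, against 12.06, 12.46 and 12.49 on the control arrays. The groups lay a full log2 unit apart, for a difference of -1.57 or 2.97-fold (SE 0.13, limma adjusted p = 1.94e-06). The other probe sets of H1f2 were at -0.16 (called, but lost in 6 of 11 alternatives) and 0.00 (not called).

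Probe set 5363615 of H1f3 read 8.26, 9.11 and 9.77 on the Smo shRNA arrays, against 10.43, 11.82 and 12.12 on the control arrays. No arrays overlapped, although both lines spread widely, and the difference was -2.41 or 5.31-fold (SE 0.38, limma adjusted p = 0.000435). The other probe sets of H1f3 were at -0.77 (called) and -0.07 (not called). The call of the first was lost in 4 of 11 alternatives, without a variance trend and without control replicate 2, control replicate 3 or Smo shRNA replicate 1 (-1.03 to -0.47 without 1 array). In H1f4, probe set 5062774 read 7.93, 8.73 and 8.78 on the Smo shRNA arrays, against 9.26, 10.17 and 10.59 on the control arrays. It fell by 1.53 in Smo shRNA cells with no overlap (SE 0.29, limma adjusted p = 0.00144), while the brightest, probe set 4906308, was higher at 13.91, 13.93 and 13.97 on the Smo shRNA arrays, against 13.65, 13.69 and 13.70 on the control arrays (difference 0.26, SE 0.04, limma adjusted p = 0.000154).

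**Figure D2:**
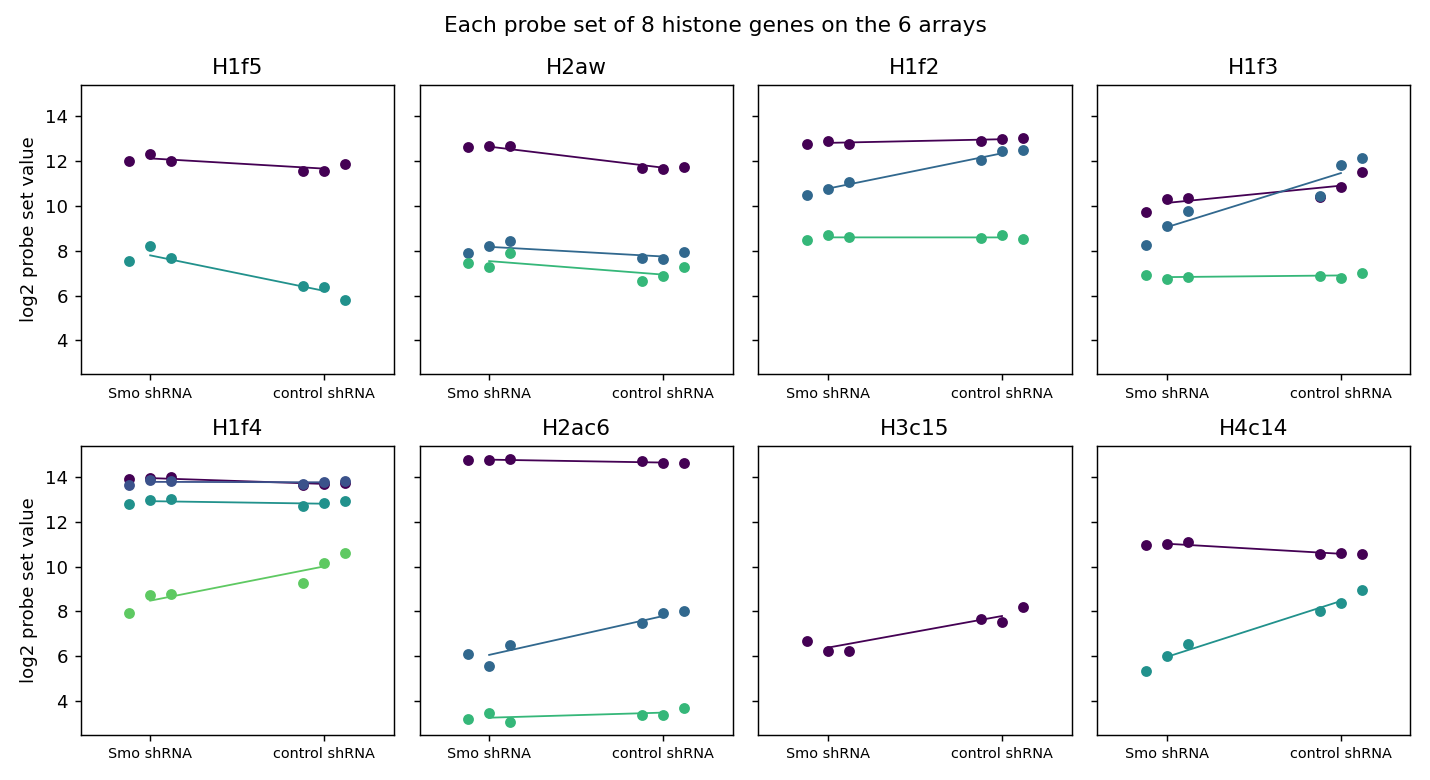
Log2 value of each probe set of 8 histone genes (y axis) on the 3 Smo shRNA arrays (left) and the 3 control shRNA arrays (right). Each colour in a panel is 1 probe set, points are arrays and lines join the group means. In H1f2, H1f3, H1f4, H2ac6 and H4c14, 1 probe set differed by -1.53 to -2.49 while another differed by at most 0.45. Both probe sets of H1f5 were called higher, by unlike amounts (0.45 and 1.58). Of the 3 of H2aw, 1 was called higher (0.94) and 2 were not called (0.43 and 0.60).

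Of the 8 H2A genes, which encode the partner of H2B in the nucleosome core, 1 rose, 1 fell and 6 were not called. H2aw, the gene of the cluster on chromosome 11, read 8.14, 8.21 and 8.42 on the Smo shRNA arrays, against 7.47, 7.54 and 7.94 on the control arrays. All Smo shRNA arrays were above all control arrays, with a difference of 0.61 or 1.52-fold (SE 0.13, limma adjusted p = 0.00586). The call was lost without Smo shRNA replicate 1 (0.67), Smo shRNA replicate 2 (0.56), control replicate 1 (0.52) or control replicate 2 (0.62). Its brightest, probe set 4963500, read 12.61, 12.65 and 12.64 on the Smo shRNA arrays, against 11.70, 11.65 and 11.74 on the control arrays. This gap of 0.94 was many times the spread within either line (SE 0.05, limma adjusted p = 4.42e-08), and it held in every alternative run on probe sets.

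H2ac7 read 6.40, 6.29 and 6.62 on the Smo shRNA arrays, against 6.82, 6.97 and 7.16 on the control arrays. The groups did not overlap and the difference was -0.54 (SE 0.11, limma adjusted p = 0.00553), at a level below the odorant receptor scale. The call was lost without control replicate 2, control replicate 3 or Smo shRNA replicate 1 (-0.57 to -0.41). Of its 4 probe sets 2 were called, at -0.95 and -0.88. H2ac12 and H2ac15, the uncalled H2A genes of highest level, differed by 0.12 (limma adjusted p = 0.0875) and by -0.06 (limma adjusted p = 0.64). The testis gene H2ac1 differed by -0.10 (limma adjusted p = 0.539).

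H2ac6 was singled out after its probe set values were seen. Its gene value differed by -0.25 and was not called (limma adjusted p = 0.159), but probe set 5180043 read 6.12, 5.56 and 6.51 on the Smo shRNA arrays, against 7.47, 7.91 and 8.0 on the control arrays. That is a gap with no overlap and a difference of -1.73 (SE 0.26, limma adjusted p = 0.000245). Probe set 5246749 of the same gene read 14.75, 14.74 and 14.80 on the Smo shRNA arrays, against 14.70, 14.59 and 14.61 on the control arrays, and was called higher by 0.13 (SE 0.04, limma adjusted p = 0.0166). These are values close to the top of the table, which ends at 15.14.

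Of the 9 H2B genes 1 rose and 8 were not called. The gene that rose was H2bc1, the testis H2B gene, which read 8.70, 8.62 and 8.58 on the Smo shRNA arrays, against 8.30, 8.48 and 8.37 on the control arrays. The arrays did not overlap and the difference of 0.25 rested on 1 probe set (SE 0.07, limma adjusted p = 0.0217). That probe set was not called in the fit over probe sets (limma adjusted p = 0.252), and the gene call was lost in 6 alternatives, 5 of them without 1 array (0.21 to 0.27; all arrays but control replicate 2). H2bc9 and H2bc18, the uncalled H2B genes of highest level, differed by -0.23 (limma adjusted p = 0.0523) and by 0.09 (limma adjusted p = 0.234). The largest H2B difference was that of H2bc8, -0.36 (SE 0.14, limma adjusted p = 0.105).

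The flat gene value of H2bc18 joined probe sets that moved in opposite directions. Of its 12 probe sets 3 were called higher, by 0.39 to 0.65, and probe set 5202757 was called lower at 5.50, 4.48 and 5.13 on the Smo shRNA arrays, against 5.90, 6.92 and 6.50 on the control arrays (difference -1.41, SE 0.31, limma adjusted p = 0.00441). The other 8 probe sets of H2bc18 were not called.

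H3c15 (Hist2h3c2), the 1 H3 gene with a probe set of its own out of 12 in the RefSeq table, read 6.70, 6.25 and 6.22 on the Smo shRNA arrays, against 7.66, 7.53 and 8.19 on the control arrays. Each Smo shRNA array was below each control array. The difference of -1.41 (SE 0.18, limma adjusted p = 0.000385) was called in all 13 alternatives. It rests on a single dim probe set whose mean on the Smo shRNA arrays, 6.39, lay below the odorant receptor scale, so no fold is given. Every alternative uses that same probe set. Of the 19 probe sets shared by 8 H3 genes with Hist2h3c2 among them, 3 were called higher and 9 lower. The 3 shared by 12 H3 genes with Hist2h3c2 among them were not called.

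Of the H4 genes with their own probe sets, H4c14 was called lower and H4c12 was not called. H4c14 (Hist2h4) read 8.16, 8.51 and 8.82 on the Smo shRNA arrays, against 9.29, 9.51 and 9.75 on the control arrays, with no overlap and a difference of -1.02 (SE 0.17, limma adjusted p = 0.00145). It joined probe set 5116313, at 5.36, 6.02 and 6.56 on the Smo shRNA arrays, against 8.04, 8.39 and 8.97 on the control arrays, with probe set 5499241, at 10.96 to 11.09 on the 3 Smo shRNA arrays, against 10.54 to 10.62 on the 3 control arrays. The dimmer one fell by 2.49 in Smo shRNA cells (SE 0.30, limma adjusted p = 4.85e-05) and the brighter one rose by 0.45 (SE 0.07, limma adjusted p = 0.000498), so the direction of the gene depends on how its 2 probe sets are joined. The gene call was also lost without Smo shRNA replicate 2 (-1.03), control replicate 2 (-1.03) or control replicate 3 (-0.90). H4c12 differed by -0.24 (SE 0.15, limma adjusted p = 0.32), while its brightest, probe set 4964693, was called higher by 0.25 (SE 0.04, limma adjusted p = 0.000161) and its other 4 were not called.

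Over all 81 member probe sets 10 were called higher, 11 lower and 60 were not called. This is 25.9%, against 22.2% of all 318760 probe sets with 1 symbol. H1f4, H2ac6, H2bc18 and H4c14 each held a probe set called higher and another called lower. Both calls of H1f4 were lost without a variance trend. The higher call of H2ac6 was lost in 4 of 11 alternatives, among them those without control replicate 2 or control replicate 3 (0.11 to 0.16 without 1 array). Of the 22 members with at least 2 probe sets, 10 had differences that spread over 1 log2 unit or more. This count and that of genes with opposite calls were not made over all genes. Neither is therefore read as particular to histone genes. Of the 21 called probe sets 11 kept their call in every alternative, and none reversed.

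The disagreement within genes was tested by taking each probe set minus the mean of the other probe sets of its gene, a test added after the probe set values were seen. Of 77 such deviations 23 were called, 16 higher and 7 lower than the rest of the gene, or 29.9% against 2.93% of all 317869 deviations. Among genes with 2 to 5 probe sets only, 19 of 65 histone deviations were called, or 29.2%, against 2.03% of all 16081. The deviations of a gene depend on each other, since 1 low probe set makes the others high. The number called also depended on the variance model: with no variance trend 3 were higher and 2 lower, and with the trend taken over the deviation itself 2 were higher and 2 lower. It fell to 7 higher and 6 lower without Smo shRNA replicate 2 and to 8 higher and 6 lower without control replicate 2.

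The 123 shared probe sets cannot be assigned to 1 gene, and their values were fitted together with all 325444 named probe sets. In them 22 were called higher and 28 lower in Smo shRNA cells, or 40.7% against 22% of all named probe sets. The probe sets of a family share target sequence and are not independent of each other. The 2 directions fell unevenly over the classes: of 29 H4 probe sets 14 were higher and 1 lower, of 33 H2B probe sets 2 were higher and 13 lower, of 30 H3 probe sets 3 were higher and 9 lower, and of 20 H2A probe sets 3 were higher and 3 lower. Both probe sets shared by H1f4 and H2B genes were lower, at -1.72 and -1.87, and 1 shared by H3 and H2A genes was not called. None of the 8 shared by H2aw and the neighbouring gene Trim17 was called, the largest difference among them being -0.20.

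All 29 shared H4 probe sets carry the same 12 gene symbols. Their median difference was 0.22. All 10 of them with a mean level of 13 or more were called higher, by 0.16 to 0.25, and the largest rise was 0.97 in a dimmer one. H2B probe sets had the largest falls, down to -2.62 in probe set 4817930, which read 4.61, 6.60 and 7.25 on the Smo shRNA arrays, against 7.92, 8.99 and 9.41 on the control arrays (SE 0.53, limma adjusted p = 0.00265). The groups did not overlap, but Smo shRNA replicate 1 lay far below the other arrays of its line. Probe set 5605196, shared by Hist1h2bb, Hist1h2bc, Hist1h2be and Hist1h2bg, was at 6.79, 7.18 and 7.48 on the Smo shRNA arrays, against 9.56, 9.47 and 9.65 on the control arrays. The lines lay far apart, with a difference of -2.41 (SE 0.18, limma adjusted p = 7.52e-07), but the mean on the Smo shRNA arrays, 7.15, was below the odorant receptor scale.

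Probe sets with the same gene symbols differed among themselves. The 16 probe sets of Hist1h2bb, Hist1h2bc, Hist1h2be and Hist1h2bg ran from -2.41 to 0.47, with 2 called higher and 6 lower. Of the 7 that carry these and Hist1h2bf, Hist1h2bj, Hist1h2bl and Hist1h2bn, 6 were called lower, with a median of -1.88, and the brightest of the 7 lay at 14.25. Among H3 probe sets, all 12 calls belonged to the 19 shared by the 8 genes Hist1h3b, Hist1h3c, Hist1h3d, Hist1h3e, Hist1h3f, Hist2h3b, Hist2h3c1 and Hist2h3c2 (3 higher and 9 lower, -1.87 to 0.38). None of the other 11 H3 probe sets, which include those of Hist1h3a, Hist1h3g, Hist1h3h and Hist1h3i, was called. The levels differed as well. The 19 ran from 3.41 to 14.17. Of the 11, 4 lay at 14.24 to 14.30, 3 at 14.26 to 14.28, 1 at 13.96 and 3 at 3.76 to 13.21. The difference between these sets of probe sets was not tested, and gene set and level cannot be told apart in it.

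**Figure D3:**
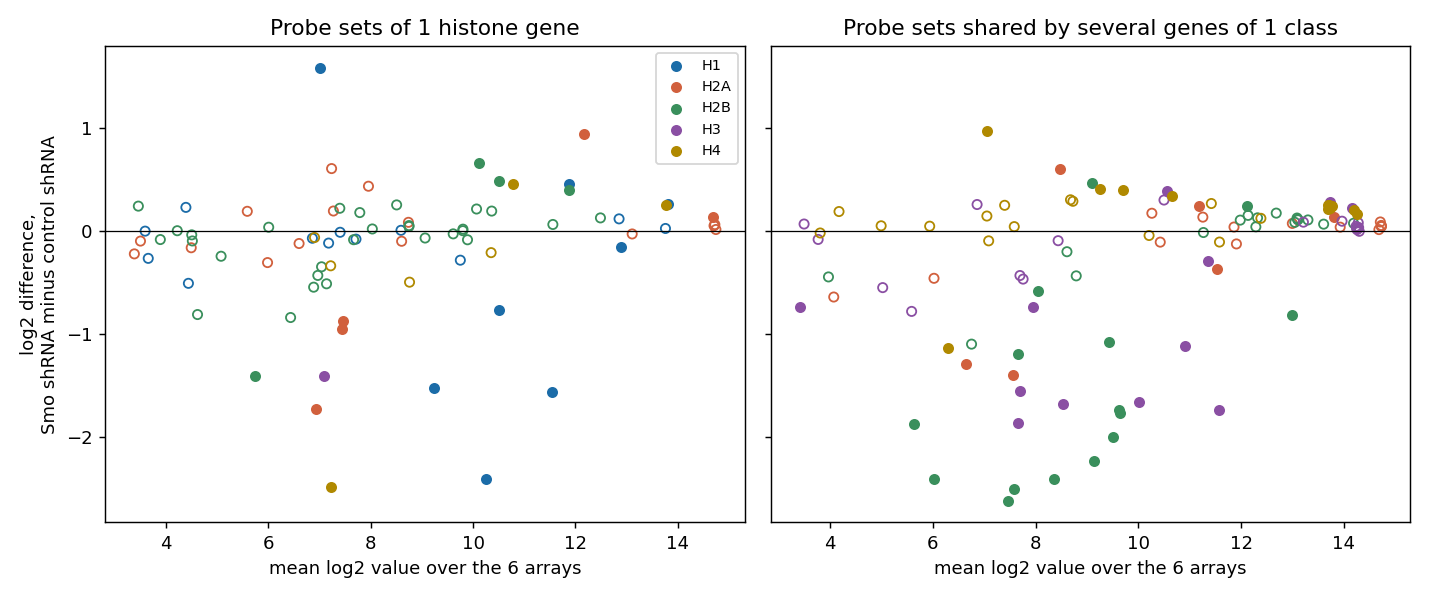
Log2 difference, Smo shRNA minus control shRNA (y axis), against the mean log2 value over the 6 arrays (x axis) for the 81 probe sets of 1 histone gene (left) and the 112 shared by several genes of 1 class (right). Each point is a probe set, coloured by class and filled where called. All called points at or below -1 lie left of 12, and called points at a level of 13 or more lie between 0.13 and 0.28.

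The large falls were all in probe sets of low or middle level, as were most of those among all named probe sets. Taking the 81 and the 115 shared by histone genes alone, 196 in all, 39 were called lower and 32 higher. Of these, 29 were lower by 1 or more, which is 14.8% against 1.46% of all named probe sets. Many of the 29 carry the same or overlapping sets of gene symbols, mostly of H2B and H3. They are not independent of each other. All 29 had a mean level below 12, namely 15 below 8, 8 between 8 and 10 and 6 between 10 and 12. Of the 4759 such falls among all named probe sets, 1832, 1713 and 1046 lay at these levels. The low or middle level is therefore not particular to the histone probe sets. Between 13 and 14, 12 of 23 histone probe sets were called higher and 0 lower, against 1599 higher and 1552 lower of all 8001 named probe sets at that level. At 14 or more 4 of 21 were higher and 0 lower, against 41 higher and 57 lower of all 793 named probe sets at that level. Of the histone probe sets called higher at 13 or more, 10 were shared H4 probe sets that carry the same 12 gene symbols. They are not independent of each other, so these counts mostly reflect H4. Whether bright probe sets were near the top of their own range was not tested.

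The 29 large falls comprised 3 H1, 3 H2A, 12 H2B, 7 H3 and 2 H4 probe sets and 2 of several classes. Their median levels were 6.90, 7.08 and 7.42 on Smo shRNA arrays 1, 2 and 3, against 8.27, 9.19 and 9.41 on control arrays 1, 2 and 3. The arrays of the lines did not overlap in any of the 29. These were chosen by adjusted p and a fall of 1 or more, which favours such a gap, so it adds no support. The gap was not counted among all named probe sets with such a fall. Within each line the 29 shared a pattern: replicate 1 was the lowest array of its line in 20 of 29 among the Smo shRNA arrays and in 23 of 29 among the control arrays, and replicate 3 was the highest in 25 of 29 in each line. Among all 4759 named probe sets that fell by 1 or more, replicate 1 was the lowest in 45.1% for Smo shRNA and in 21.3% for control. How often replicate 3 was the highest was not counted among the 4759. Many of the 29 carry overlapping sets of gene symbols, so they are not separate observations of the pattern. What sets these arrays apart, and its part in the falls, was not tested.

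Members whose starts lie close together on opposite strands were compared by their gene values. H2ac8 and H2bc8, whose starts lie 180 bases apart, differed by -0.02 and -0.36, neither of them called. H2bc1 and H2ac1, whose starts lie 281 bases apart, differed by 0.25 (called) and by -0.10 (not called).

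Of 32 genes that make and process histone mRNA, 21 were called higher and 0 lower in Smo shRNA cells, with a median difference of 0.18. This is 65.6% called, against 28.1% of all genes. The list also holds genes that act beyond histone mRNA, among them Cdk2, Ccne1, Ccne2, Ccna2 and E2f1, which were all called higher. Without any 1 array 14 to 15 were higher, and 15 with the brightest probe set of each gene, with 0 lower in each of these. Lsm11, a protein of the U7 small nuclear ribonucleoprotein, changed most, at 9.52 ± 0.15 in Smo shRNA cells and 8.52 ± 0.15 in control cells (SD, n = 3 each; difference 1.01, SE 0.09, limma adjusted p = 5.89e-05). Cpsf2, a cleavage complex subunit, differed by 0.58 (limma adjusted p = 0.000148), the cap-binding Ncbp1 by 0.34 (limma adjusted p = 3.19e-05) and cyclin A2 (Ccna2) by 0.21 (limma adjusted p = 0.000198). Npat and Slbp, chosen after their values were seen, differed by 0.36 (limma adjusted p = 0.000527) and by 0.16 (limma adjusted p = 0.0212). Snrpb and Ncbp2, the uncalled genes of highest level named in this list, were at 0.10 and -0.02.

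Of 39 DNA replication genes 34 were higher and 0 lower, or 87.2% called against 28.1% of all genes, with a median of 0.45. Rrm1 and Tyms, the uncalled genes of highest level in this list, were each at 0.02. The helicase subunits Mcm2 (0.95) and Mcm5 (0.69), the licensing factor Cdt1 (0.69) and Uhrf1 (0.54), which helps copy DNA methylation, had the smallest adjusted p (at most 5.67e-06, limma). That these genes were higher was known from these data when the list was chosen. The median was -0.08 for the 26 histone genes and 0.03 for the 123 shared histone probe sets, and the difference between the lists was not tested.

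**Figure D4:**
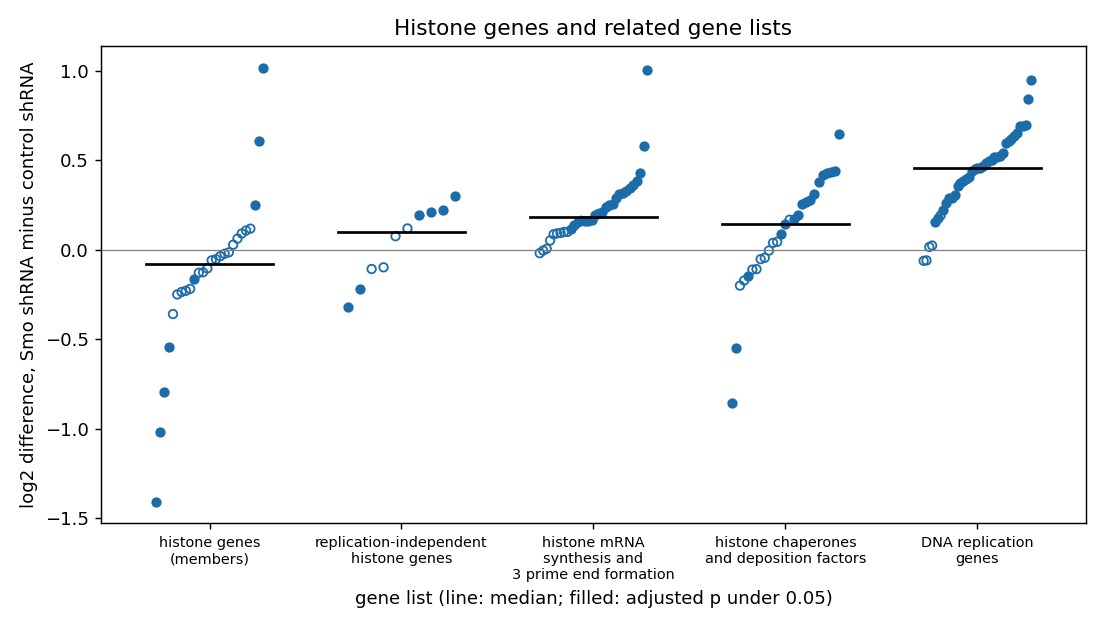
Log2 difference of each gene, Smo shRNA minus control shRNA (y axis), for the 26 histone genes and 4 related lists (x axis). Points are genes, filled where called, and lines are list medians: -0.08 for the histone genes, 0.10, 0.18 and 0.15 for replication-independent histones, histone mRNA factors and chaperones, and 0.45 for DNA replication genes.

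The replication-independent histone genes, whose mRNAs mostly carry a poly(A) tail, changed by small amounts. Of 10 measured 4 rose, 2 fell and 4 were not called, or 60% called against 28.1% of all genes. Without control replicate 3 none of them was called lower, and 1 was without Smo shRNA replicate 2, control replicate 1 or control replicate 2. H2ax, which marks DNA breaks, was higher by 0.30 (SE 0.04, limma adjusted p = 0.000223), H2az1 by 0.21 (SE 0.02, limma adjusted p = 0.000155) and H3f3b, a gene of the H3.3 variant, by 0.20 (SE 0.03, limma adjusted p = 0.000623). Macroh2a2, a transcription-repressing H2A variant, fell by 0.22 in Smo shRNA cells (SE 0.04, limma adjusted p = 0.00529), and the uncalled H2az2 and Cenpa were at -0.10 and 0.08.

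Of 27 histone chaperones and deposition factors 14 rose, 3 fell and 10 were not called, or 63.0% called against 28.1% of all genes. Asf1b, which carries H3 and H4 to new DNA, was at 12.80 ± 0.02 in Smo shRNA cells and 12.37 ± 0.05 in control cells (SD, n = 3 each; difference 0.43, limma adjusted p = 9.12e-06). Chaf1a, a subunit of the assembly factor CAF-1, and the H4 methyltransferase Kmt5a each rose by 0.44. Ubn1, a subunit of the HIRA complex that deposits H3.3, was at 9.55 ± 0.09 in Smo shRNA cells and 10.41 ± 0.02 in control cells (SD, n = 3 each). It fell by 0.86 in Smo shRNA cells (SE 0.05, limma adjusted p = 6.14e-06). The uncalled Rbbp7 and Rbbp4, histone-binding proteins of several complexes, were at 0.04 and 0.00.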

How the data were processed

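Total RNA of 6 samples was read on 1-colour exon arrays. The authors deposited log2 values for 1256831 probe sets; no source used here states the scale, and base 2 was inferred from their range (0 to 15.14). Every fold depends on it. Array medians were alike (6.56 to 6.59). Not given in the sources used here: how probes were summarised and normalized, and which genome build the annotation follows. In 20744 rows, none of them named, every array read 0, and these were left out.

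Probe sets were named by the platform annotation, 318760 with 1 symbol and 6684 with several; of 22296 symbols 18006 were current in RefSeq (GRCm38.p6) and 4227 were updated through a synonym. All probe sets with 1 symbol, dim ones included, were joined per gene and array by median polish, and the lines were compared by limma 3.58.1 under R 4.3.3 (variance trend, two-sided, Benjamini-Hochberg over all features, threshold 0.05). The number of arrays limits the precision, and no detection call was used.

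The members, gene lists and tests were chosen with earlier results of these data known. Genes were named by a rule: per class up to 4 called members in each direction by adjusted p, up to 2 uncalled members of highest level and the largest difference; the highest and lowest member; the testis genes; and per related list up to 4 called and 2 uncalled genes. H2ac6, H2ac8, Npat and Slbp fall outside it. The calculation was tested on simulated data. Alternatives covered the filter on dim probe sets, joining, variance trend, normalization, a replicate block and leaving out each array.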

Additional observations from a re-analysis of the deposited data

How the results depend on the processing

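With dim probe sets filtered out, 8 of 26 histone genes were called lower, against 2863 of all 20356 genes. With 3 or more kept probe sets as well, only 8 histone genes were tested. Of these 1 was higher and 2 were lower, against 3587 higher and 2942 lower of all 16871 genes. With the brightest probe set standing for each gene, 7 were called higher, against 2506 of all 22103 genes, 9 chaperones and 2 replication-independent histone genes were higher, and H2ac6 (0.13), H4c12 (0.25) and H4c14 (0.45) reversed, as their probe sets disagree. Without a variance trend 3 histone genes were lower, against 2462 of all 22103 genes. In that setting 4 histone probe sets were higher and 7 lower, and of the within-gene deviations 3 were higher and 2 lower. With the trend over the deviation itself these were 2 and 2. For the other settings the cause was not tested. Without 1 array, 1 to 2 histone genes were higher and 1 to 3 lower, 9 to 11 probe sets higher and 8 to 13 lower, 15 to 25 shared probe sets higher and 23 to 29 lower, and 7 to 16 deviations higher and 6 to 8 lower. In the same fits 2132 to 2456 of all genes were higher and 1759 to 2474 lower, and 0 to 2 replication-independent histone genes were lower. For probe sets, shared probe sets and deviations, counts over all features are not given for the alternatives. Of the 8 called genes 2, H1f5 and H3c15, kept their call in every alternative. The within-gene deviations and the fit of shared probe sets, with their alternatives, were chosen after seeing the data.

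The labels do not tie same-numbered arrays to each other. Deviations of same-numbered pairs correlated at 0.07, 0.06 and 0.25 over all gene values and at 0.35, 0.03 and 0.50 over the 81 probe sets of the members. Pairs of different numbers ran from -0.22 to 0.18 and from -0.54 to 0.19. Not every same-numbered pair lay above 0.1, so the arrays were treated as sharing only a number. With a replicate block 3 histone genes were higher and 6 lower, against 3456 higher and 2859 lower of all 22103 genes. In that setting 11 histone probe sets were higher and 14 lower. Probe sets near the top of the scale and those as dim as odorant receptor genes limit what can be read from these genes.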
